A study of Rattus norvegicus with 12 samples.

Results

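Dopamine, noradrenaline and serotonin neurons are small populations of the midbrain and brainstem, and 10 genes that make, pack, take back or specify these monoamines were followed through 12 libraries of rat brain RNA. The genes were Th, Ddc, Dbh, Tph2, Slc18a2, Slc6a3, Slc6a4, Slc6a2, Nr4a2 and Pitx3, which are 10 of the 37209 gene symbols in the count table. They were picked by symbol, with their levels in these libraries already known, so their levels and differences are given as a description with no test. All 10 passed the filter on low counts.

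All rats were of the Sprague Dawley strain and aged 21 days after birth, and their libraries formed 4 groups of 3. In the MCAO group the middle cerebral artery, which feeds cortex and striatum, was occluded. In the pontine infarction group the infarct lay in the pons, the bulge of the brainstem in front of the cerebellum. The sham animals fell into 2 code series, called here sham LN and sham PN. Sham LN was set against MCAO and sham PN against pontine infarction because each pair shares the first letter of its codes. As tissue the labels state brain, with no region and no time after the stroke. The labels speak of 3 rats for each stroke, but do not say how rats map to libraries, so p-values measure the spread between these libraries.

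Th (tyrosine hydroxylase) makes L-DOPA from tyrosine and is rate-limiting for dopamine and noradrenaline. Ddc (aromatic amino acid decarboxylase) turns L-DOPA into dopamine and 5-hydroxytryptophan into serotonin. Dbh (dopamine beta-hydroxylase) turns dopamine into noradrenaline, and Tph2 (tryptophan hydroxylase of neurons) starts serotonin synthesis. Slc18a2, the vesicular monoamine transporter VMAT2, loads all of these transmitters into vesicles. Slc6a3, Slc6a4 and Slc6a2 encode the membrane transporters for dopamine, serotonin and noradrenaline, which take the released transmitter back up. Nr4a2 and Pitx3 are transcription factors that midbrain dopamine neurons need. Dopamine neurons sit mainly in the substantia nigra and ventral tegmental area, noradrenaline neurons in the locus coeruleus of the pons, and serotonin neurons in the raphe nuclei along the midline.

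The 250 bases in front of the transcription start are shown for the 5 genes on which the results turn: Th and Slc18a2, which several monoamine neurons share, and Slc6a3, Dbh and Tph2, which tell dopamine, noradrenaline and serotonin neurons apart. The sequences are RefSeq's on build GRCr8, written 5′ to 3′ along each gene, and capitals mark matches to the motifs searched. The library counts were made on Rnor_6.0, so these coordinates belong to the sequences only. A window was found for 8 of the 10 genes, which leaves Slc6a4 and Slc6a2 by name only.
Th, chr1:207508219-207508468, minus strand: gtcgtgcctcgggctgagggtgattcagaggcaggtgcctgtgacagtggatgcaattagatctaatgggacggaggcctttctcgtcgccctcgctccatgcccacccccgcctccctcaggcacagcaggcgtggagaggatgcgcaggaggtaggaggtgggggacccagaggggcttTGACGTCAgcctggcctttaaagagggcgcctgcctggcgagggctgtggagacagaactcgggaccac
Slc18a2, chr1:268399771-268400020, plus strand: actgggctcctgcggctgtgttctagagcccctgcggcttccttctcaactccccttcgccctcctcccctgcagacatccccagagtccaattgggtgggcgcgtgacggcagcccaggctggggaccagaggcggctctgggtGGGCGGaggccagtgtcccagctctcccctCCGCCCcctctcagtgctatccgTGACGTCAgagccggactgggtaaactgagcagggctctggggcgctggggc
Slc6a3, chr1:31578963-31579212, minus strand: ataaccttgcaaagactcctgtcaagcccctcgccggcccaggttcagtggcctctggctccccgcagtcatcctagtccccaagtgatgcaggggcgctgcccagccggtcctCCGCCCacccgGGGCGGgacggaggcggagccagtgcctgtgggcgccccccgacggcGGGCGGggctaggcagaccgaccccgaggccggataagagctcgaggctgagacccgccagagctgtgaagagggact
Dbh, chr3:30886078-30886327, plus strand: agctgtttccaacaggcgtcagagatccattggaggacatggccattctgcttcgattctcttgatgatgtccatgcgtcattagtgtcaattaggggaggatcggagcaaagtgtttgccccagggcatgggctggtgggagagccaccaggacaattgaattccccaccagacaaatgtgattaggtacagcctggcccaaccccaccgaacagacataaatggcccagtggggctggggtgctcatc
Tph2, chr7:52675640-52675889, minus strand: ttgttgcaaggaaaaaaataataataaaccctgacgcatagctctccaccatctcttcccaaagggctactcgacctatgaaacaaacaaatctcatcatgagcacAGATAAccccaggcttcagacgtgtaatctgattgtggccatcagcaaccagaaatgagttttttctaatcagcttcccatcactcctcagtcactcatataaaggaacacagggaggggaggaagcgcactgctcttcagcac

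Th and Slc18a2 each hold a full cAMP response element (TGACGTCA, the same on both strands), which ends 62 bases before the start in Th and 45 bases before it in Slc18a2. This element occurs in 1.59% of 33469 windows of the same length. Slc6a3 holds 3 GC boxes (GGGCGG or its reverse complement CCGCCC) and Slc18a2 holds 2, and 30.5% of all windows have at least 1. Tph2 holds 1 GATA site (AGATAA, or TTATCT on the other strand), a motif found in 10.3% of windows. The Nr4a2 response element AAAGGTCA occurs among the members only in Ddc, as its reverse complement TGACCTTT, and in 1.24% of all windows. The Pitx site TAATCC (or GGATTA) is in 6.34% of windows and in 0 of the 8 genes with a window, and the Dbh window has 0 matches to the 5 motifs. These matches describe letters in a fixed window and nothing more.

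Total counts ran from 19805815 to 40400676 per library, and levels are given as CPM, the count scaled to a common library total after TMM correction for RNA composition. A count of 3, taken as the floor, equals 0.0701 to 0.148 CPM across the 12 libraries. CPM is not corrected for transcript length, so each gene is compared across libraries and not with other genes. 1 MCAO library carries a code that matches no sample title and is called the unnumbered MCAO library. In bulk tissue, fewer cells of a type and less RNA per cell cannot be told apart.

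Transcripts of dopamine, noradrenaline and serotonin neurons were abundant in the 3 sham PN libraries, and at or near the floor for the transporters and Dbh in the 6 sham LN and MCAO libraries. Of the pontine infarction libraries, replicate 1 held all 3 kinds, replicate 2 was at or near the floor for the noradrenaline genes Dbh and Slc6a2, and replicate 3 was so for the dopamine transporter.

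Among the synthesis enzymes, Th was low in all 6 libraries of the LN and MCAO groups and high in all 6 of the PN and pontine infarction groups. Sham LN replicates 1, 2 and 3 gave 2.40, 1.78 and 1.64 CPM, and the MCAO libraries gave 2.02 and 2.52 CPM in replicates 1 and 2 and 3.34 CPM in the unnumbered library. Sham PN gave 98.3, 189.7 and 129.9 CPM, and pontine infarction gave 119, 197 and 57.6 CPM. The lowest of the latter 6 libraries, pontine infarction replicate 3, was still far above the highest of the first 6. The mean was 139 ± 46.4 CPM in sham PN (SD, n = 3) and 1.94 ± 0.401 CPM in sham LN (SD, n = 3), a log2 difference of 6.15 ± 0.48 (SE).

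Tph2, the serotonin-specific enzyme, was split in the same way. Its level was 4.42, 2.41 and 3.63 CPM in sham LN and 1.68, 2.52 and 3.29 CPM in MCAO, the unnumbered library last. In sham PN it was 43.3, 172 and 146 CPM, and in pontine infarction it was 161, 83.8 and 39.8 CPM. Sham PN replicate 1 and pontine infarction replicate 3 were the low libraries of their groups. The difference between the shams was 5.10 ± 0.63 on the log2 scale.

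Ddc was the enzyme whose levels separated sham LN from MCAO. Sham LN held 10.5, 11.4 and 7.72 CPM. MCAO replicate 1 held 0.144 CPM and the unnumbered MCAO library 0.290 CPM, from 3 and 6 counts, while MCAO replicate 2 held 6.61 CPM from 134 counts. Sham PN held 64.9, 141 and 102 CPM and pontine infarction 95.9, 105 and 36.1 CPM, which put sham PN 3.38 ± 0.88 above sham LN on the log2 scale.

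Dbh, the noradrenaline enzyme, was near the floor in sham LN at 0.0527, 0.407 and 0.421 CPM. MCAO was as low, at 0.0962, 0.247 and 0.193 CPM. Sham PN gave 9.41, 5.06 and 5.24 CPM, a log2 difference from sham LN of 4.53 ± 1.45. The pontine infarction libraries lay far apart, at 7.49, 0.0935 and 50.5 CPM: replicate 2 was at the level of the LN and MCAO libraries, and replicate 3 was above every other library.

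The vesicular transporter Slc18a2 followed Th. It was 0.132, 0.185 and 0.918 CPM in sham LN, and 0.433, 0.395 and 0.870 CPM in MCAO. It was 79.0, 139 and 81.1 CPM in sham PN, and 109.7, 113 and 28.9 CPM in pontine infarction. Sham PN was 7.99 ± 0.76 above sham LN on the log2 scale, and 9.29 without sham LN replicate 3, the sham LN library with the most Slc18a2.

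The membrane transporters were at or near 0 counts in most LN and MCAO libraries. The dopamine transporter Slc6a3 had 2, 1 and 2 counts in sham LN and 4, 2 and 1 in MCAO, against 1408, 3139 and 1678 in sham PN. In CPM these were 0.0527, 0.0370 and 0.0765 in sham LN, 0.192, 0.0987 and 0.0483 in MCAO, and 60.5, 119 and 60.3 in sham PN. Pontine infarction replicates 1 and 2 gave 64.9 and 108 CPM, but replicate 3 gave 0.0374 CPM, from 1 count. By pooled counts sham PN was 1462-fold above sham LN (95% exact interval of 626 to 4505 for counting error only).

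The serotonin transporter Slc6a4 was 0.0263, 0.0370 and 0.306 CPM in sham LN and 0.144, 0.148 and 0 CPM in MCAO. It was 30.7, 153.7 and 153.5 CPM in sham PN and 120.1, 70.8 and 31.0 CPM in pontine infarction, with the same low libraries as Tph2. By pooled counts sham PN was 1064-fold above sham LN (95% exact interval of 578 to 2220 for counting error only). The log2 difference was 9.92 ± 0.998, and 11.63 without sham LN replicate 3, which held 8 of the 10 sham LN counts.

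The noradrenaline transporter Slc6a2 had 0 counts in all 3 sham LN libraries and 1 count in the 3 MCAO libraries together. It had 84, 60 and 42 counts in sham PN (3.61, 2.27 and 1.51 CPM), which is at least 72.8-fold higher than sham LN when sham LN is set to the floor of 3 counts for the group. Pontine infarction gave 46, 0 and 388 counts (2.14, 0 and 14.5 CPM). As with Dbh, replicate 2 was at the bottom and replicate 3 at the top.

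The dopamine neuron transcription factors behaved unlike each other. Pitx3 was 0.132, 0 and 0.153 CPM in sham LN and 0.240, 0.0987 and 0.242 CPM in MCAO. It was 2.79, 3.70 and 2.01 CPM in sham PN and 2.74, 5.10 and 0.187 CPM in pontine infarction, so replicate 3 was at the level of the LN and MCAO libraries. Sham PN exceeded sham LN by 4.80 ± 1.06 on the log2 scale.

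Nr4a2 was present in every library and did not mark the PN and pontine infarction groups. It was 11.3, 29.0 and 19.9 CPM in sham LN, 6.20, 49.7 and 20.7 CPM in MCAO, 12.5, 15.7 and 9.66 CPM in sham PN, and 8.55, 13.1 and 9.45 CPM in pontine infarction. All neighbouring groups overlapped, and the shams differed by -0.67 ± 0.57 on the log2 scale. Of the 3 genes tied most closely to dopamine neurons, Slc6a3 and Pitx3 thus separated the shams and Nr4a2 did not. Nr4a2 is also known as an early response gene and is made in parts of the cortex.

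**Figure D1:**
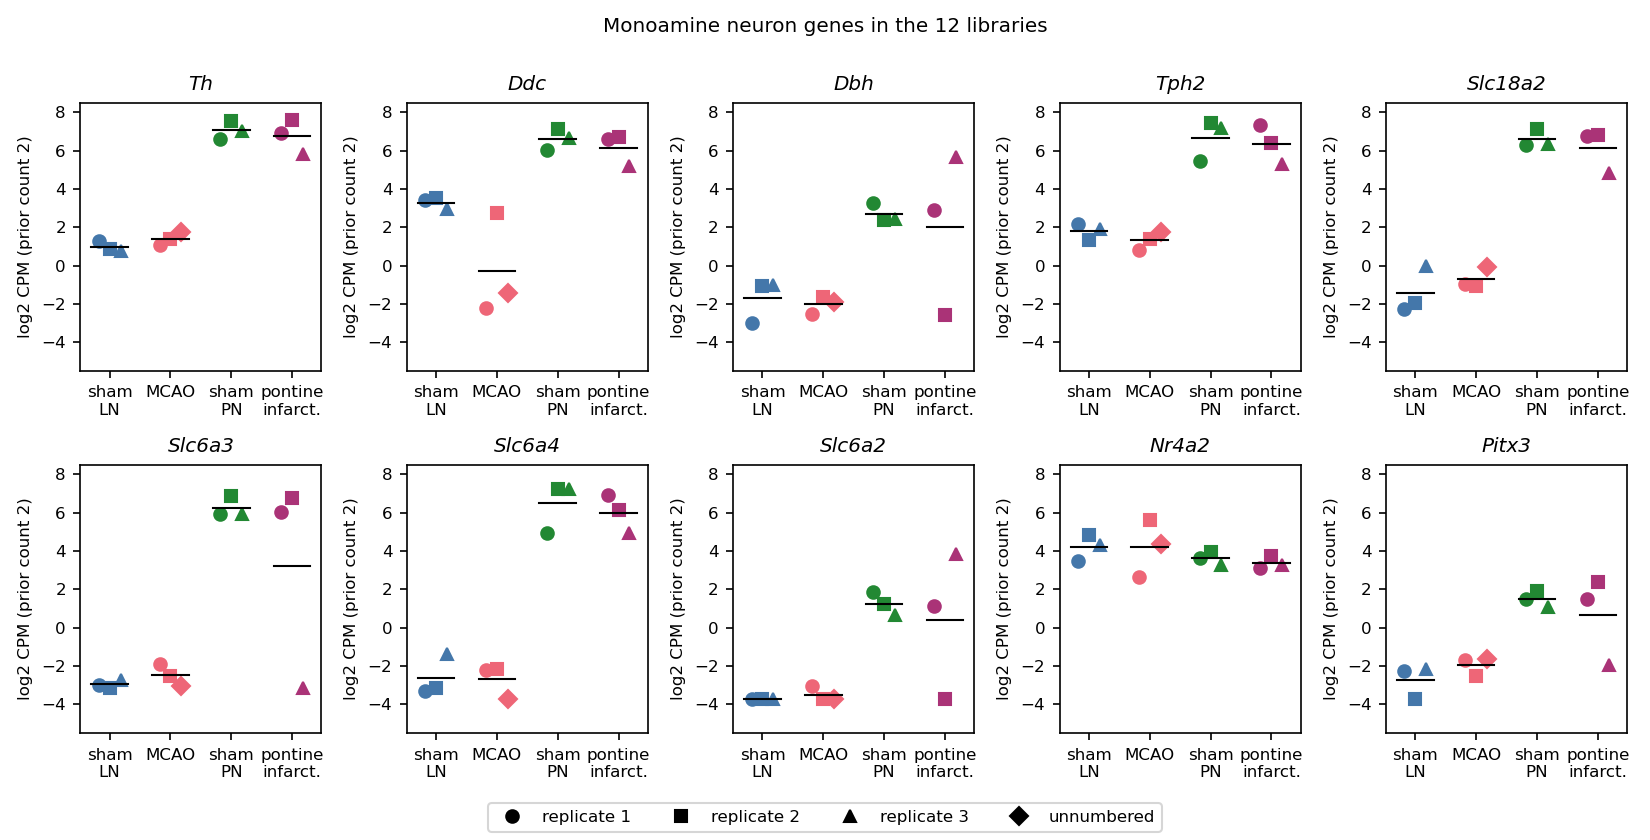
Level of each of the 10 genes in each library, as log2 CPM with a prior count of 2 (y axis), by group (x axis). Each point is 1 library, the shape gives the replicate and the bar is the mean of 3 libraries. Th, Ddc, Tph2, Slc18a2 and Slc6a4 are higher in all 6 sham PN and pontine infarction libraries than in the other 6, Dbh, Slc6a2, Slc6a3 and Pitx3 are at the level of the LN and MCAO libraries in 1 pontine infarction library each, and Nr4a2 overlaps across groups.

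In the order of group means, sham PN was highest for 7 genes (Th, Ddc, Tph2, Slc18a2, Slc6a3, Slc6a4 and Pitx3), pontine infarction for 2 (Dbh and Slc6a2), and MCAO for Nr4a2, whose place rested on the 49.7 CPM of MCAO replicate 2. Sham PN and pontine infarction overlapped for all 10. Next in order, the second and the third group overlapped for Slc6a3, Pitx3 and Nr4a2 and were apart for the other 7 genes. Sham LN and MCAO overlapped for 9 genes, with Ddc the exception. For 9 of the 10 genes, all but Nr4a2, every sham PN library was above every sham LN library, an arrangement that 29.2% of all 17008 tested genes showed. For 5 of the 10 (Th, Ddc, Tph2, Slc18a2 and Slc6a4), all 6 sham PN and pontine infarction libraries were above all 6 others, against 6.93% of tested genes. The genes were chosen with these contrasts known, so nothing is read from those shares.

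Pontine infarction and sham PN did not separate for any of the 10 genes. The differences, pontine infarction minus sham PN on the log2 scale, were -0.16 ± 0.37 for Th, -0.38 ± 0.80 for Ddc, -0.34 ± 0.52 for Tph2, -0.25 ± 0.53 for Slc18a2 and -0.61 ± 0.61 for Slc6a4. They were -0.47 ± 1.08 for Slc6a3, -0.07 ± 0.82 for Pitx3, -0.28 ± 0.57 for Nr4a2, 1.56 ± 1.18 for Dbh and 1.17 ± 1.31 for Slc6a2. Dbh had the difference that was largest against its standard error. Of all tested genes, 18.7% had every pontine infarction library below every sham PN library and 13.3% had every one above.

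The group means hid opposite patterns in single pontine infarction libraries. In replicate 3, Slc6a3 (1 count) was 2147-fold lower than the pooled sham PN counts, with a counting interval of 385 to 84824. Against the floor of 3 counts in that library it was at least 716-fold lower. Pitx3 (5 counts) was 15.1-fold lower, with an interval of 6.38 to 47.0. In the same library Dbh was 7.86 times and Slc6a2 6.05 times the sham PN level. The genes that several monoamine neurons share were lower by moderate factors: 2.44-fold for Th, 2.89-fold for Ddc and 3.47-fold for Slc18a2. The serotonin genes were 3.12-fold lower for Tph2 and 3.76-fold lower for Slc6a4. Replicate 3 thus held the noradrenaline genes at the highest level of the series while the dopamine transporter was at the floor.

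Replicate 2 showed the opposite. Dbh, at 4 counts, was 68.8-fold lower than the pooled sham PN counts, with a counting interval of 26.7 to 253. Slc6a2, at 0 counts, was at least 34.2-fold lower against a floor of 3 counts in that library. Th in replicate 2 was 1.40 times the sham PN level, and Th and Pitx3 were above every sham PN library. Replicate 1 held all 3 sets of transporters within the sham PN range.

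The counts of members in each library followed from this. Replicate 3 was below every sham PN library for 7 of 10 genes (43.3% of all tested genes did so) and above every one for 2, Dbh and Slc6a2 (32.7%). Replicate 2 was below for Dbh and Slc6a2 (34.8% of tested genes) and above for Th and Pitx3 (25.5%). Replicate 1 was below for Nr4a2 alone (41.1%) and above for 0 (28.6%). A level under 0.25 of every sham PN library was rarer: it held for Slc6a3 and Pitx3 in replicate 3, where 1.51% of all tested genes did so, for Dbh and Slc6a2 in replicate 2, with 0.329%, and for 0 members in replicate 1, with 1.65%. The members were picked with their levels known, so nothing is read from these shares either. These libraries had 19805815, 38722682 and 24417059 counts in replicates 1, 2 and 3, and replicate 2 was the deepest of the group.

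**Figure D2:**
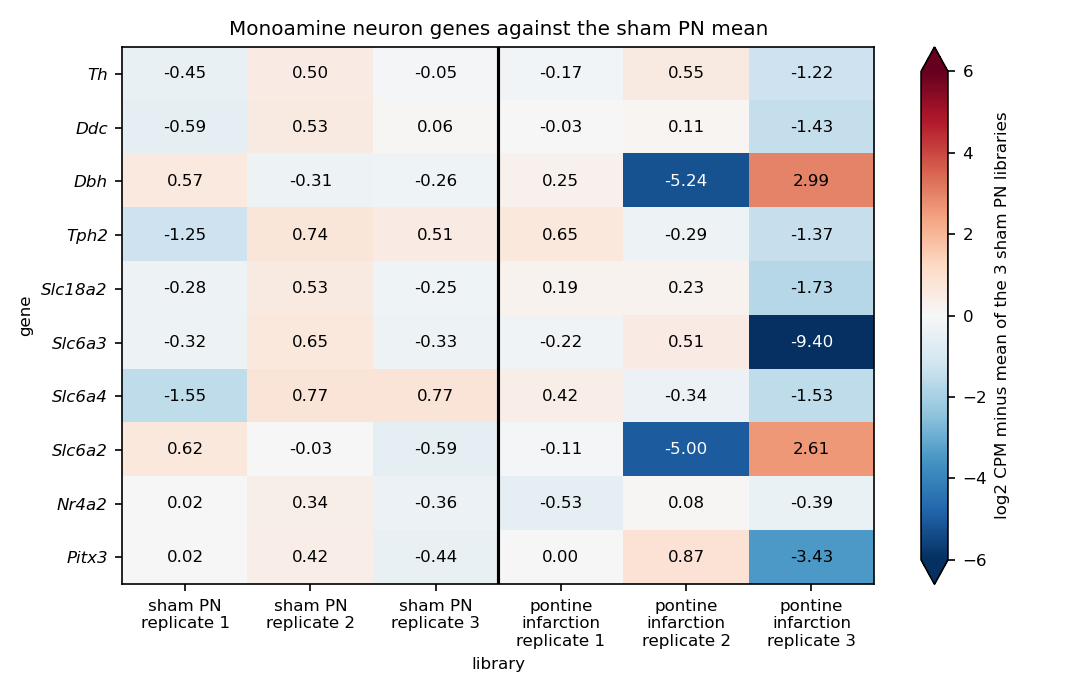
Difference of each gene (rows) in each sham PN and pontine infarction library (columns) from the mean of the 3 sham PN libraries, in log2 CPM with a prior count of 2. Colour runs from blue (lower) to red (higher) and is clipped at 6 on either side, with each value printed in its cell. Dbh and Slc6a2 are lowest in pontine infarction replicate 2 and highest in replicate 3, and Slc6a3 and Pitx3 are lowest in replicate 3.

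Without replicate 3, the log2 difference between pontine infarction and sham PN was -0.82 for Dbh, -1.26 for Slc6a2, 0.12 for Slc6a3 and 0.47 for Pitx3. Without replicate 2, it was 2.14 for Dbh, 1.76 for Slc6a2, -1.30 for Slc6a3 and -0.97 for Pitx3. Each of these 4 differences took its sign from 1 library. For Th the values were 0.18 without replicate 3 and -0.66 without replicate 2, and for Tph2 they were 0.02 and -0.26. Without replicate 1, Tph2 was at -0.96, Slc6a4 at -1.15 and Th at -0.13.

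Ratios of counts within a library do not depend on its depth. Among pairs of genes made in the same neurons, Slc6a4 per 100 counts of Tph2 was 70.9, 89.6 and 105 in sham PN and 74.4, 84.4 and 78.1 in pontine infarction. Slc6a2 per 100 counts of Dbh was 38.4, 44.8 and 28.8 in sham PN and 28.6 and 28.7 in pontine infarction replicates 1 and 3, while replicate 2 had 0 Slc6a2 and 4 Dbh counts. Slc18a2 per 100 counts of Ddc, which all monoamine neurons use together, stayed between 79.5 and 122 over the 6 libraries. The dopamine pair did not stay in such a range: Pitx3 per 100 counts of Slc6a3 was 4.62, 3.12 and 3.34 in sham PN and 4.23 and 4.73 in pontine infarction replicates 1 and 2, while replicate 3 had 5 Pitx3 counts and 1 Slc6a3 count.

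Th and Ddc, which dopamine and noradrenaline neurons share while serotonin neurons use Ddc alone, kept a ratio in a similar range. Th per 100 counts of Ddc was 151, 134 and 127 in sham PN and 124, 187 and 159.6 in pontine infarction. The ratios of Slc6a3 and Dbh to Th, which dopamine and noradrenaline neurons share, and of Slc6a3 to Tph2 of serotonin neurons varied more. Slc6a3 per 100 counts of Th was 61.6, 62.5 and 46.4 in sham PN and 54.4 and 54.8 in pontine infarction replicates 1 and 2, and it was 0.0648 in replicate 3. Dbh per 100 counts of Th was 9.58, 2.67 and 4.04 in sham PN, and 6.28, 0.0475 and 87.7 in pontine infarction. Slc6a3 per 100 counts of Tph2 already varied among the shams, at 140, 69.1 and 41.3, and was 40.2, 129 and 0.0940 in pontine infarction. Sham PN replicate 1 thus held more dopamine transporter relative to the serotonin enzyme than sham PN replicates 2 and 3 did.

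**Figure D3:**
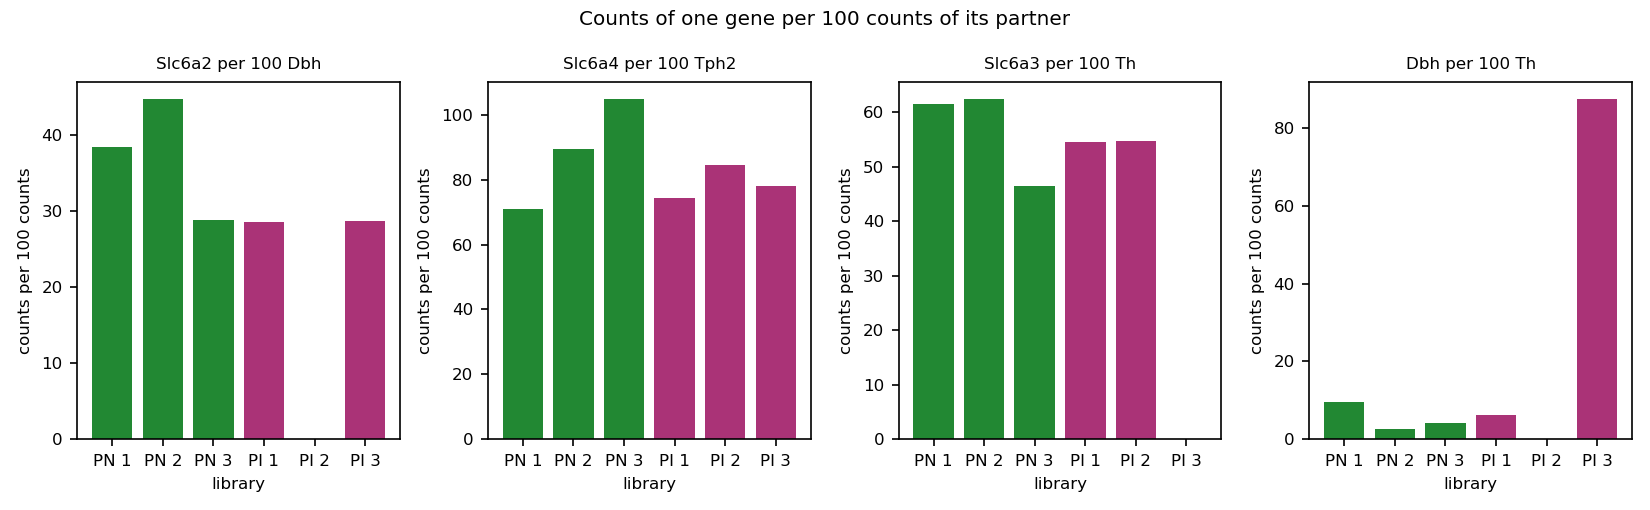
Counts of 1 gene per 100 counts of another in the same library (y axis) for the 3 sham PN and 3 pontine infarction (PI) libraries (x axis). Slc6a4 per Tph2 stays between 70.9 and 105 in all 6 libraries, while Slc6a2 per Dbh is 0 in replicate 2, Slc6a3 per Th is near 0 in replicate 3 and Dbh per Th reaches 87.7 there.

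Lists of other genes known from the same neurons, none of them a member, were tested between the shams. All companion lists were chosen with earlier results of these data known. Their counts and p-values, here and in the other comparisons, are thus not independent evidence of direction. The comparison of the shams shares its sham LN libraries with that of MCAO and its sham PN libraries with that of pontine infarction. Across all genes 21.3% passed, 11.3% higher and 10% lower in sham PN, and the median log2 change over all tested genes was 0.11. Of 14 tested dopamine neuron companions, 12 rose in sham PN and 1 fell, with a median log2 change of 4.72. Ret, the receptor through which GDNF supports dopamine neurons, rose by 4.51 ± 0.51 (adjusted p = 0.000123, edgeR quasi-likelihood test), and Aldh1a1, an aldehyde dehydrogenase of ventral dopamine neurons, by 2.89 ± 0.38 (adjusted p = 0.000317). Drd2, the D2 receptor that striatal neurons carry too, fell by 2.67 (SE 0.55, adjusted p = 0.00502).

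Of 10 serotonin neuron companions, 7 rose and 1 fell, with a median of 2.42. Gata3, a transcription factor of serotonin neurons, rose by 9.49 ± 0.67 (edgeR adjusted p = 8.89e-06), and Fev, the factor Pet1 that defines them, by 9.42 ± 1.08 (adjusted p = 0.000315). Slc22a3, a low-affinity monoamine transporter that is not limited to these neurons, fell by 2.56 (SE 0.48, adjusted p = 0.00278). Of 9 noradrenaline neuron companions, 6 rose and 1 fell, with a median of 2.33. Hcrtr1, the orexin receptor of locus coeruleus neurons, rose by 2.33 ± 0.44 (adjusted p = 0.00313), and Moxd1, a relative of Dbh, fell by 4.19 (SE 0.87, adjusted p = 0.00526).

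Genes for the cofactor that Th and Tph2 need were tested between the shams. Of 11 tested genes for cofactor synthesis and monoamine breakdown, 4 rose in sham PN, 0 fell, and the median was 0.59. All 4 belong to the cofactor, tetrahydrobiopterin: Gch1, its rate-limiting enzyme, rose by 4.57 ± 0.68 (edgeR adjusted p = 0.000749), its regulator Gchfr by 4.96 ± 0.57 (adjusted p = 0.000130), and the recycling enzymes Pcbd1 by 2.50 ± 0.33 (adjusted p = 0.000315) and Qdpr by 1.34 ± 0.26 (adjusted p = 0.00400). The synthesis enzymes Pts and Spr did not pass, at 0.59 ± 0.19 (adjusted p = 0.0511) and 0.50 ± 0.19 (adjusted p = 0.0855). The breakdown enzymes Maoa and Maob are listed at 0 in all 12 libraries, as are 97.6% of symbols on the X chromosome, so they cannot be read here.

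Receptors for these transmitters went the other way on balance. Of 23 tested receptor genes, 3 were higher and 9 lower in sham PN, with a median log2 change of -0.85. Drd1, the D1 receptor of striatal projection neurons, fell by 6.01 (SE 0.43, edgeR adjusted p = 8.89e-06), and Adra1d by 3.61 (SE 0.29, adjusted p = 1.62e-05).

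Region markers moved alongside. Of 15 tested midbrain and hindbrain genes 14 rose and 1 fell, with a median of 8.74, or 7.77 with genes at 0 in sham LN set to their bound. Of 13 telencephalon genes 0 rose and 11 fell, with a median of -5.35, and of 12 striatal projection neuron genes 0 rose and 12 fell, with a median of -4.51. The region sampled and the sham series cannot be told apart in this design.

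Between pontine infarction and sham PN, where 4.08% of all genes passed (3.21% higher and 0.87% lower), 0 of the dopamine, serotonin, noradrenaline, cofactor or receptor companions passed in edgeR. At an unadjusted p under 0.05 there were 0 dopamine, 0 serotonin, 1 noradrenaline, 1 cofactor and breakdown, and 6 receptor genes. The share of all genes at that unadjusted threshold is not given, so nothing is read from these counts. The median log2 changes were -0.20 for the dopamine, -0.31 for the serotonin and 0.86 for the noradrenaline list, beside -0.08 for all genes. Over all 136 tested companions 4 passed, namely Trh, Junb, Pf4 and Hoxb3, of which the first 3 rose, and DESeq2 called 7. Without any 1 of the 3 sham PN libraries the count was 0, and without pontine infarction replicate 1 it was 2. Without MCAO replicate 1 or 2, which are outside this contrast but share its filter, scaling and spread, it was 7 or 9. The median log2 change of all genes was then 0.02 in either case. Calls over all genes were 694 in the main fit, 1738 in DESeq2, and 182, 52 and 6 without sham PN replicates 1, 2 and 3. They were 431 without pontine infarction replicate 1, and 1003 or 1416 without MCAO replicate 1 or 2.

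The companion genes were also read library by library. In pontine infarction replicate 3, 12 of 14 dopamine companions were below every sham PN library (43.3% of all tested genes were) and 1 was above (32.7%). Their median log2 difference from the sham PN mean was -1.61, beside -0.09 for all genes. Chrna6 and Foxa2 were under 0.25 of the level in every sham PN library, as were 1.51% of all tested genes. Chrna6, a nicotinic receptor subunit of dopamine neurons, was 9.45, 15.8 and 9.88 CPM in sham PN, and 13.7, 16.0 and 1.72 CPM in pontine infarction. Foxa2, a factor that dopamine neurons need, was 1.29, 4.27 and 2.84 CPM in sham PN and 2.09, 7.25 and 0.0374 CPM in pontine infarction. Both were named after their values were seen.

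Of the noradrenaline companions, the same library had 6 of 9 above every sham PN library (32.7% of all tested genes) and 3 below (43.3%), with a median of 1.61. Among the 6, Gal was above in all 3 pontine infarction libraries, and Gal and Calca also rose in MCAO. The summed level of the 10 listed genes was 170 CPM in replicate 3, within the 160 to 176 CPM of sham PN. Phox2a, which switches on Dbh during development, was 0.473, 0.793 and 0.144 CPM in sham PN. In pontine infarction it was 0.697 CPM in replicate 1, 0.0234 CPM in replicate 2 and 1.98 CPM in replicate 3. It was thus lowest in replicate 2 and highest in replicate 3 of the 6 libraries. Phox2a was likewise named after its values were seen.

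Replicate 2 had a median of 0.15 for the dopamine companions, with 6 of 14 above every sham PN library (25.5% of all tested genes) and 1 below (34.8%). Its noradrenaline companions had a median of -0.41, with 4 of 9 below (Phox2a, Calca, Adra2a and Hcrtr1) and 1 above. With so few genes, 4 of 9 is near the 34.8% of all genes, and Adra2a and Hcrtr1 were below every sham PN library in all 3 pontine infarction libraries. The serotonin companions were at -0.02, -0.12 and -0.88 in replicates 1, 2 and 3. The matching medians of replicate 1 were -0.06 for dopamine and 0.29 for noradrenaline companions.

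Markers of neighbouring tissue differed between these libraries too. All 10 tested cerebellum genes were above every sham PN library in replicate 3, with a median log2 difference of 2.59, against -0.68 and -0.54 in replicates 1 and 2. The summed level of the 11 listed cerebellum genes was 278 to 381 CPM in sham PN and 208, 282 and 1518 CPM in pontine infarction replicates 1, 2 and 3, and 0 of the genes was at 0 counts in these 6 libraries. A high sum was not limited to replicate 3: it was 1190 to 1195 CPM in sham LN and 433 to 878 CPM in MCAO. Itpr1 alone had a mean of 980 CPM in sham LN. Gabra6, a granule cell receptor subunit that did not pass the filter, was 2.88, 0.0378 and 0.180 CPM in sham PN and 0.0465, 0.0935 and 75.2 CPM in pontine infarction. The midbrain and hindbrain list had medians of -0.72, -1.24 and -0.85 in replicates 1, 2 and 3, so it was lower in all 3. The part of these markers in the results for the members was not tested.

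**Figure D4:**
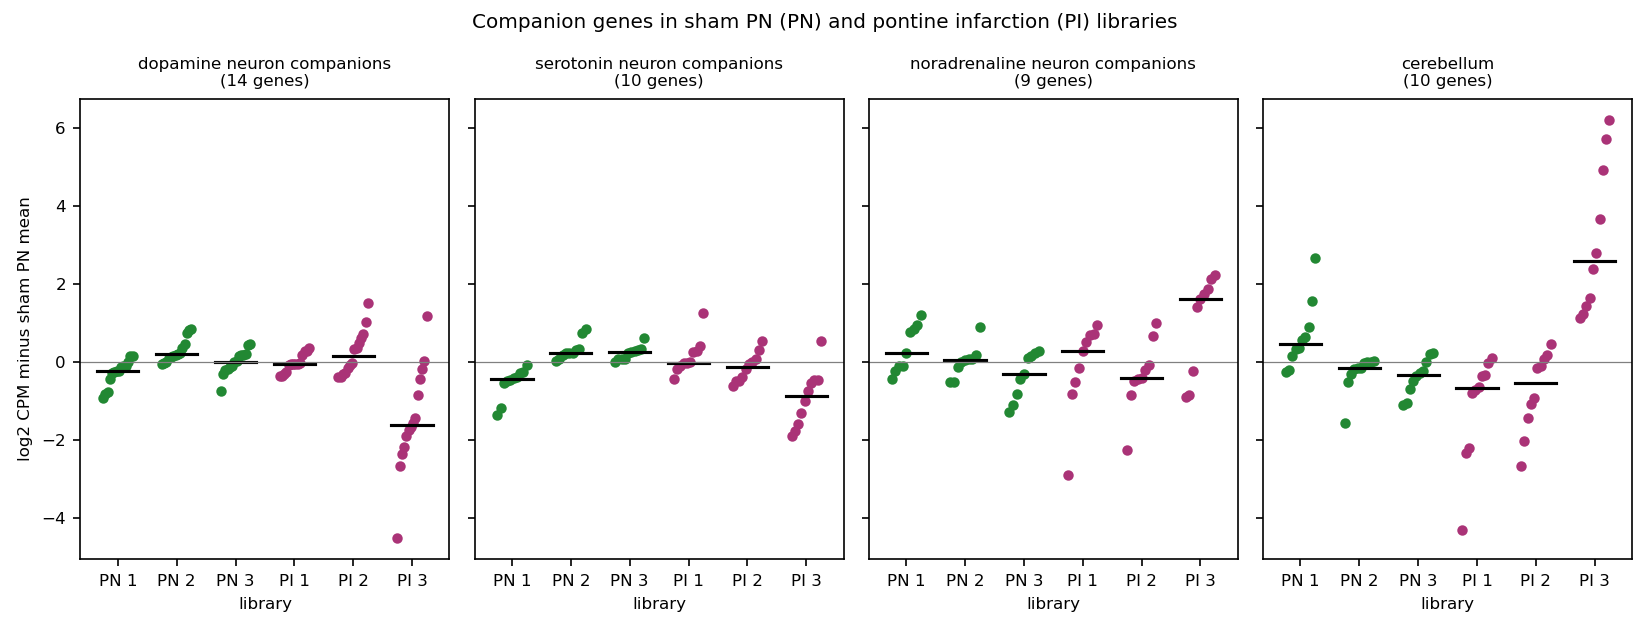
Difference of each tested companion gene from the mean of the 3 sham PN libraries, in log2 CPM with a prior count of 2 (y axis), in each sham PN (PN) and pontine infarction (PI) library (x axis). Each point is 1 gene, sorted by value within a library, and the bar is the median. In replicate 3 the dopamine list has a median of -1.61, the noradrenaline list 1.61 and the cerebellum list 2.59.

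Between MCAO and sham LN, Ddc was the only member whose groups did not overlap. Every MCAO library was below every sham LN library, as for 18.7% of all tested genes, and 0 members had every MCAO library above, beside 20.4% of all genes. The Ddc difference was -2.07 ± 0.90 on the log2 scale. It rested unevenly on the libraries: it was -5.57 without MCAO replicate 2 and -1.55 without the unnumbered library. Th differed by 0.42 ± 0.44, Tph2 by -0.49 ± 0.59 and Nr4a2 by 0.35 ± 0.57. The Nr4a2 difference turned to -0.67 without MCAO replicate 2, and that of Th was -0.02 in the fit with a replicate block. The remaining 6 members had 1 to 35 counts in the 3 MCAO libraries together and overlapped with sham LN, so no difference was detectable at this depth.

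Other genes of the pathway did pass between MCAO and sham LN, where 18.6% of all genes passed, 12.5% higher and 6.07% lower. Gch1 was 0.895, 0.519 and 0.344 CPM in sham LN and 32.7, 5.48 and 16.9 CPM in MCAO, the unnumbered library last. All 3 MCAO libraries exceeded all sham LN libraries, and Gch1 rose by 4.92 ± 0.69 on the log2 scale (edgeR adjusted p = 0.00228). Ret was 5.48, 3.33 and 5.66 CPM in sham LN and 54.9, 14.7 and 71.0 CPM in MCAO, and rose by 3.28 ± 0.49 (adjusted p = 0.00246). MCAO replicate 2 was the lowest MCAO library for both genes.

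Of the peptides on the noradrenaline list, Calca, the CGRP precursor, rose by 5.94 ± 0.97 (edgeR adjusted p = 0.00348) and Gal, galanin, by 4.36 ± 0.67 (adjusted p = 0.00288). These 4 genes, Gch1, Ret, Calca and Gal, kept their call in all 19 alternatives. Over the lists, 4 dopamine companions rose and 1 fell of 14, 1 serotonin companion rose of 10, 2 noradrenaline companions rose of 9, and 2 cofactor genes rose of 11. Apart from Ret, the dopamine rises were Lmx1a, En1 and En2, with low MCAO means of 0.754, 0.725 and 0.243 CPM. The serotonin rise was Gata3, with a MCAO mean of 0.292 CPM. Lmx1a and En1 overlapped with sham LN. The calls of Lmx1a, En1, En2 and Gata3 were lost in 9, 11, 4 and 5 of 18 alternatives. Of 23 receptor genes 1 rose and 5 fell, with a median log2 change of -0.94. Of 12 striatal projection neuron genes 0 rose and 5 fell. Their summed level was 4059 to 8508 CPM in sham LN and 3120 to 4369 CPM in MCAO. It was highest in MCAO replicate 2 among the MCAO libraries, which was also the library that kept Ddc, at 6.61 CPM. Among the shams the order differed: sham LN replicate 2 had the lowest sum, 4059 CPM, and the highest Ddc, 11.4 CPM. The part of these neurons in the Ddc difference was not tested.

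In all, 31 of 136 tested companions passed between MCAO and sham LN, 19 higher and 12 lower. The count was 9, 18 and 7 without sham LN replicates 1, 2 and 3, 13 without MCAO replicate 1, 56 without MCAO replicate 2, 10 without the unnumbered library, and 19 without sham PN replicate 2. Calls over all genes moved alongside, from 3163 in the main fit to 1137, 1544 and 1257 without sham LN replicates 1, 2 and 3. They were 1426 without MCAO replicate 1, 6169 without MCAO replicate 2, 1517 without the unnumbered library and 2416 without sham PN replicate 2. A test of whether the 2 stroke responses differed called 0 of 17008 genes in edgeR, and 10 companions among 238 genes in DESeq2. At an unadjusted p under 0.05 there were 23 of 136 companions in edgeR, a count with no share over all genes beside it. Without MCAO replicate 2 edgeR called 17 companions among 970 genes.

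**Figure D5:**
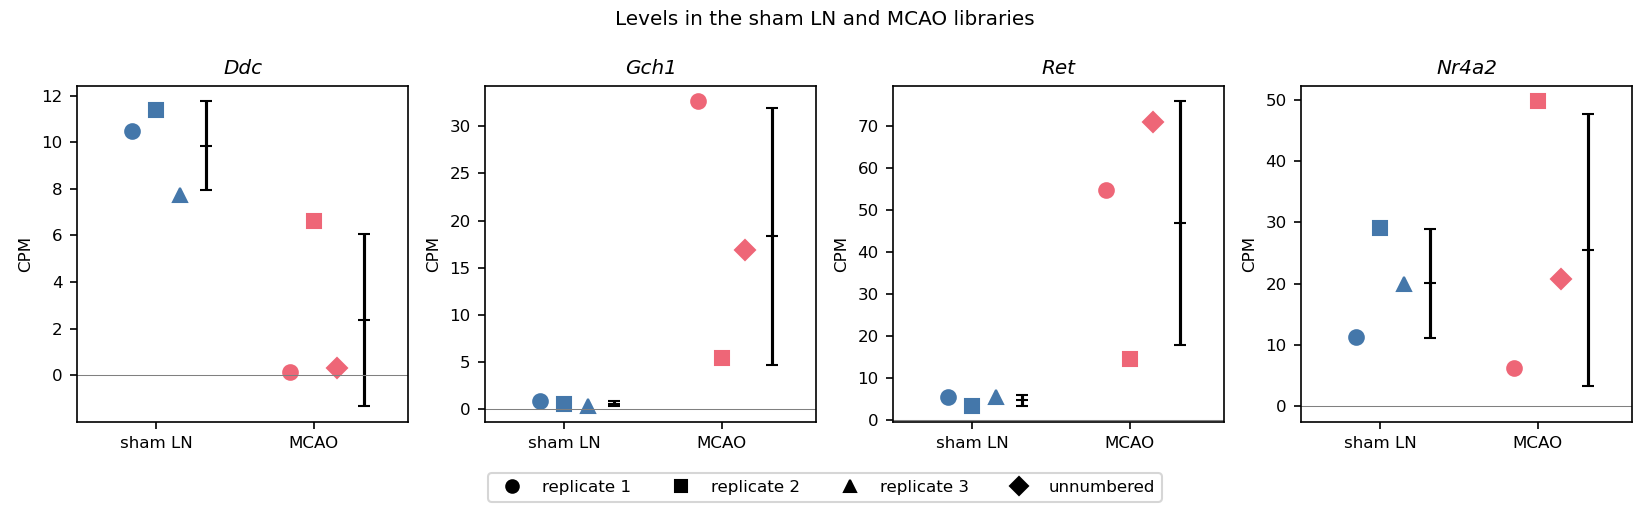
CPM (y axis) of Ddc, Gch1, Ret and Nr4a2 in the sham LN and MCAO libraries (x axis). Points are libraries, the shape gives the replicate, and the bar is the mean with 1 SD on either side (n = 3). Ddc is near 0 in MCAO replicate 1 and the unnumbered library and 6.61 in replicate 2, Gch1 and Ret are higher in all 3 MCAO libraries, and Nr4a2 overlaps.

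Genes whose pattern was most like 1 transporter or enzyme were found by Pearson correlation of log2 CPM over the 12 libraries, among 13228 genes. For Slc6a3 they were Foxa2 (r = 0.98), Ankrd34b (0.97), Lypd6b (0.97), Inpp5f (0.96) and Tox2 (0.96). For Tph2 they were Fev (0.99), C1ql4 (0.98), Pax7 (0.98), Coprs (0.97) and Sec11c (0.97). For Dbh they were Skor1 (0.91), Tsen15 (0.90), Ilkap (0.88), Nupr1l (0.88) and Smarcal1 (0.87). The points share the 4 groups and their libraries, so high values follow in part from the split between groups. By Spearman correlation 0, 1 and 2 of the 5 genes remained for Slc6a3, Tph2 and Dbh.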

How the data were processed

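Total RNA of 12 rat brain libraries was sequenced, extracted with Trizol and with an RNA integrity number above 8, per the labels' protocols. HISAT2, with no version, and the build Rnor_6.0 are named in the submitters' processing notes. How genes were counted, with which annotation and strand setting, is not given in the sources used here. The authors deposited unscaled whole-number counts per gene symbol, and 1 of the 12 columns carries a code that matches no title and was used as an MCAO library without a number.

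In R 4.3.3 with edgeR 4.0.16, filterByExpr with a count minimum of 10 and a total minimum of 15 kept 17008 of 37209 symbols. All 12 libraries entered 1 quasi-likelihood fit after TMM scaling (common biological coefficient of variation 0.302), with 2-sided tests, Benjamini-Hochberg adjustment over all tested genes and a threshold of 0.05. The SE of a log2 change was its size divided by the root of F. CPM was computed from TMM-scaled library sizes, and a prior count of 2 entered log2 CPM of single libraries. Folds of pooled counts carry exact 95% intervals that cover counting error only. The fit was checked on simulated counts with known changes.

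The members and the 13 companion lists (164 genes, 163 in the table, 136 tested) were chosen with earlier results of these data known, so they are not independent evidence of direction. Named were every member and, of each list, up to 4 genes past the threshold with the highest CPM in the higher group, and for likeness the 5 genes with the highest correlation that reached 5 CPM in a library. Exceptions are named as such, and Fev between the shams was also added after its values were seen. 1 listed gene is not reported here by name. Alternatives were DESeq2 size factors, no filter, 1 CPM in 3 libraries, DESeq2 1.42.0, limma 3.58.1 voom, a replicate block, the compared libraries alone, and each library left out.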

Additional observations from a re-analysis of the deposited data

How the results depend on the processing

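Of 136 tested companions, 90 passed between the shams, and 79 to 110 did so in the 19 alternatives (79 to 97 with a library left out). Between MCAO and sham LN 31 passed, and 7 to 56 did so with a library left out. The count was 10 with only the compared libraries and 10 without the unnumbered MCAO library. Between pontine infarction and sham PN 4 passed, with 0 to 9 when a library was left out, 7 with no filter and 7 in DESeq2. For the difference between the responses 0 passed, with 0 to 17 when a library was left out and 10 in DESeq2. Calls over all genes moved too, for MCAO from 3163 in the main fit to 1137 without sham LN replicate 1 and 6169 without MCAO replicate 2. In these counts the cause was not tested. Of the comparisons of named companions with an alternative, 1229 kept direction and side of the threshold, 246 kept the direction only and 0 reversed. Of those of members, 441 moved by less than the spread between libraries and 7 by more. That spread was the larger SD of log2 CPM among the groups compared, which contains the outlying libraries. A change of sign could thus count as less, as for Dbh after pontine infarction, at 1.56 in the main fit and -0.82 without replicate 3. The 441 is therefore no measure of stability.

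The replicate block, which leaves out the unnumbered library, gave 96 companions between the shams, 10 for MCAO, 4 for pontine infarction and 0 for the difference between responses. Deviations of same-numbered libraries from their group means correlated at -0.10 to 0.42. Among the libraries of other groups, 8 of 11 numbered libraries correlated best with a library of their own number. Whether the numbers mark paired libraries was not tested. The number of the 5 most similar genes that remained by Spearman correlation was 0 for Slc6a3, 1 for Tph2 and 2 for Dbh.

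Counts of 0 to 3 limit Slc6a3, Slc6a4, Slc6a2, Dbh and Pitx3 in single sham LN and MCAO libraries. Leaving out 1 library of a group leaves 2, whose spread is pooled with that of the other groups.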

Other observations

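Trh, Junb and Pf4 passed the test in both strokes. Trh, the thyrotropin-releasing hormone precursor, was 3.53, 1.18 and 3.29 CPM in sham LN and 65.5, 27.5 and 47.0 CPM in MCAO, the unnumbered library last, a rise of 4.12 ± 0.47 on the log2 scale (edgeR adjusted p = 0.00110). In sham PN it was 6.14, 8.01 and 5.35 CPM and in pontine infarction 15.4, 31.3 and 16.7 CPM, a rise of 1.70 ± 0.43 (adjusted p = 0.0482), which was lost without each sham PN library, each pontine infarction library, sham LN replicate 1 or 3, or the unnumbered MCAO library, and also in the replicate block and in limma voom. Junb, an early response gene, rose by 1.80 ± 0.42 in MCAO (adjusted p = 0.0149) and by 2.02 ± 0.42 in pontine infarction (adjusted p = 0.0251). The MCAO call was lost without sham LN replicate 1, sham LN replicate 3 or MCAO replicate 1. The pontine infarction call was lost without each sham PN library and in limma voom. Pf4, of the mast cell and platelet list, rose by 3.03 ± 0.69 in MCAO (edgeR adjusted p = 0.0134) and 3.03 ± 0.66 in pontine infarction (edgeR adjusted p = 0.0280). Its MCAO call was lost without sham LN replicate 1 or 3 or MCAO replicate 1. Its pontine infarction call was lost without each sham PN library or pontine infarction replicate 3, and in the replicate block. Limma voom lost both.

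Hoxb3, a hindbrain patterning gene, was 6.66, 6.80 and 7.94 CPM in sham PN and 0.930, 1.47 and 2.06 CPM in pontine infarction, and 0 in every sham LN and MCAO library. It fell by 2.25 (SE 0.39, edgeR adjusted p = 0.0246) after pontine infarction, in 3 of 3 libraries. The call was lost without each sham PN library and without pontine infarction replicate 1.

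The count table lists 564 of 578 X chromosome symbols at 0 in all 12 libraries (97.6%), against 928 of 15720 autosomal symbols (5.90%). Maoa, Maob, the serotonin receptor gene Htr2c and Renbp are among these X-linked symbols at 0.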
